A study of Mus musculus with 9 samples.

Results

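The comparison of senkyunolide A in ligated mice used 6 of the 9 libraries of the series: 3 libraries of mice with bile duct ligation plus senkyunolide A against 3 libraries of mice with bile duct ligation (BDL) alone. All 6 libraries therefore share the ligation and differ by the compound. Of the 22173 genes in the deposited table, the 10013 genes with a mean of at least 1 FPKM over these 6 libraries were tested. FPKM count the fragments of a gene relative to its length and to the size of the library. The 3 sham libraries, from mice with the sham operation, are given as a reference level and entered the estimate of spread, but not the comparison. All samples are labelled as mouse cholangiocytes, the epithelial cells that line the bile ducts. The dose and timing of the compound, the length of ligation, the strain, age and sex of the mice and the way the cells were isolated were not stated in the labels. Values below follow the order of libraries 1, 2 and 3 of a group, and "against" separates BDL, given first, from BDL plus senkyunolide A. The series title places the compound at the TRAF6 and HDAC3 proteins, at c-MYC and at cholestatic liver injury, so the question was what the compound changed in the transcripts of ligated mice.

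Ligation of the bile duct stops bile flow, and the bile acids that accumulate injure hepatocytes and drive the bile ducts to proliferate. The liver meets the load with conjugating enzymes, export pumps and antioxidant enzymes, many of which are targets of the transcription factor NRF2. Glutathione transferases are one such family: they attach glutathione to reactive compounds so that they can be exported. Senkyunolide A is a phthalide, a small lactone found in the herb Ligusticum chuanxiong.

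The estimated depth was 30.7 to 33.8 M fragments in the 6 libraries. Hepatocyte transcripts were abundant in all of them. The 35 hepatocyte markers took 20.6% to 26.7% of the summed FPKM in BDL and 24.5% to 27.6% with senkyunolide A, whereas the 25 biliary epithelial markers took 0.0533% to 0.157% and 0.0351% to 0.0985%. Keratin 19 (Krt19), a defining keratin of bile ducts, read 2.28, 2.19 and 6.7 FPKM in BDL libraries 1, 2 and 3 and 1.91, 3.81 and 4.88 FPKM in the senkyunolide A libraries, and albumin (Alb) read 21395 to 36654 and 22249 to 35510 FPKM. The values thus go against a label of cholangiocytes alone, and the samples are called libraries here. The deposited scaling put the median log2 difference of all tested genes at -0.12, and median-ratio scaling put it at -0.01.

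BDL plus senkyunolide A library 1 and BDL library 3 stood apart from their groups. On the first principal component of the 6 libraries, which held 43% of the variance, library 1 of the senkyunolide A group lay at -21.3, between BDL library 1 at -16.4 and BDL library 2 at -35.5. Libraries 2 and 3 of its group lay at 33.3 and 34.1 (log2 units). BDL library 3, at 5.73, lay between these libraries and BDL libraries 1 and 2. BDL library 3 correlated more closely with senkyunolide A library 2 (Pearson r = 0.972 across genes) than with BDL libraries 1 and 2 (0.954 and 0.941). Genes are not independent replicates, so these values describe the libraries only. In senkyunolide A library 1, 82 genes lay at least 1 log2 unit above and 84 at least 1 log2 unit below all 5 other libraries. BDL library 3 lay as far above on 29 genes and below on 4. BDL library 2 did so above on 52 genes, BDL library 1 below on 24, and the others on at most 9 in a direction.

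**Figure D1:**
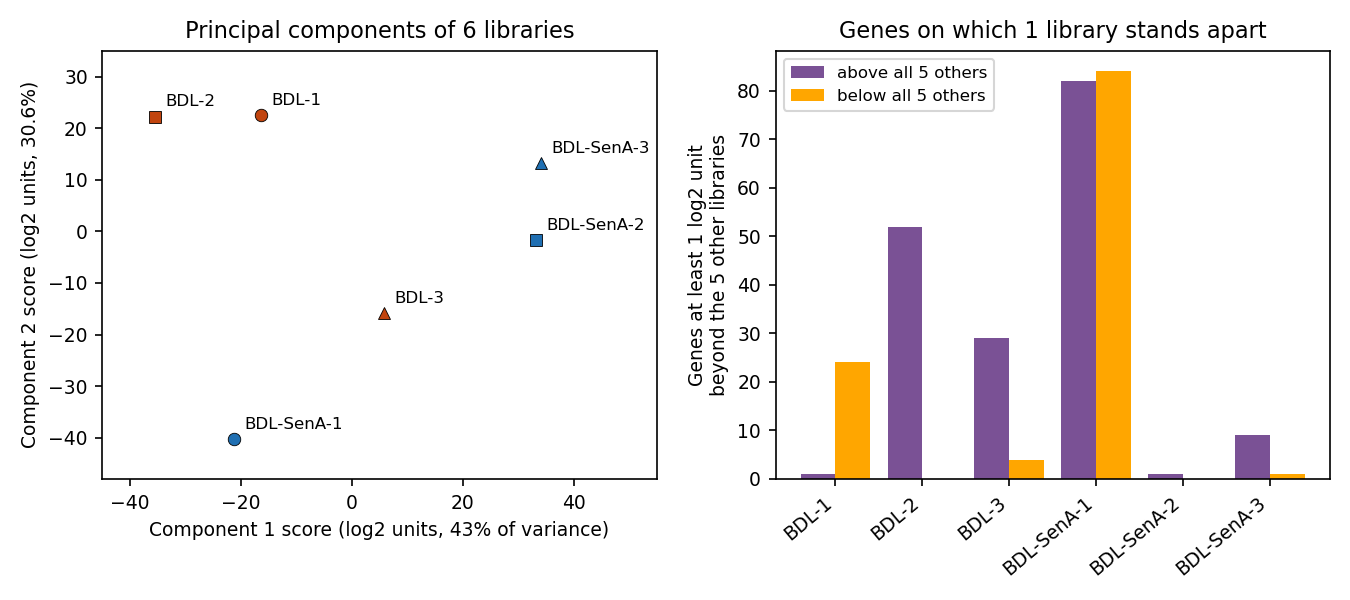
Left, scores of the 6 libraries on the first and second principal components of log2(FPKM + 1) over 10013 genes. Right, the number of genes on which a library lay at least 1 log2 unit above or below all 5 others; BDL plus senkyunolide A library 1 has 82 and 84 such genes.

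The genes furthest from the other libraries in library 1 of the senkyunolide A group included pancreatic, liver and acute phase genes. Pancreatic digestive enzymes were read in it: trypsin 5 (Try5) was listed at 0 in the other 8 libraries and read 22.5 FPKM there. The chymotrypsin precursor Ctrb1 read 18.1 FPKM there and Try4 14.5 FPKM. Of 26 pancreatic acinar genes, a list added after these values were seen, 23 were highest of all 9 libraries in this one and 3 (Cela3a, Amy2a5 and Ptf1a) were listed at 0 in every library. The list took 0.029% of its summed FPKM and 0.00112% to 0.00186% in the BDL libraries. Some liver genes were also high there. Hsd3b5, a steroid dehydrogenase of male mouse liver, read 225, 0.302 and 0.134 FPKM in senkyunolide A libraries 1, 2 and 3, 1.12, 2.69 and 1.76 FPKM in BDL and 301, 241 and 259 FPKM in sham. Sult2a8, a liver sulfotransferase, read 2.2, 3.23 and 28.7 against 460.4, 4.74 and 1.06 FPKM, and 371, 611 and 621 FPKM in sham. The major urinary protein gene Mup2 read 0.303, 0.55 and 4.15 against 108, 0.903 and 0.315 FPKM. Others were low there. The acute phase glycoprotein gene Orm2 read 555, 412 and 722 against 67.3, 2263 and 2194 FPKM, and 6.88, 11.3 and 6.83 FPKM in sham. The basement membrane protein nidogen 1 (Nid1) read 24.6, 19.6 and 23.5 against 4.21, 20.9 and 29.8 FPKM, and 4.45, 2.69 and 2.62 FPKM in sham. On Hsd3b5, Sult2a8 and Nid1 this library was nearer to sham than to the other 5 libraries, while on Orm2 it lay between. The near-identical copy Orm3 read 21.4, 13.6 and 11 against 2.3, 53.1 and 61.1 FPKM, and the sphingomyelinase Smpd3 8.58, 12.9 and 8.34 against 1, 8.3 and 8.4 FPKM. The part of pancreatic transcripts in the other values of this library was not tested.

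BDL library 3 stood apart in part by genes of dividing cells. The mitotic phosphatase gene Cdkn3 read 0.199, 0.384 and 11.1 against 0.073, 1.33 and 0.655 FPKM. Cyclin B2 (Ccnb2), which drives entry into mitosis, read 0.115, 0.161 and 8.28 against 0.338, 1.04 and 0.898 FPKM. The microtubule regulator stathmin 1 (Stmn1) read 6.34, 5.07 and 37.7 FPKM in BDL, and the mitotic ubiquitin-conjugating enzyme Ube2c 0.286, 0.968 and 9.48 FPKM. Of 30 cell cycle and replication genes 27 were highest of all 9 libraries in this one, and their summed FPKM was 68.7, 72.1 and 229 in BDL and 70.9, 122 and 118 with senkyunolide A. It also held the most of the glutathione transferase Gsta1, at 38.7, 30.5 and 174 FPKM in BDL. At the low end, the estrogen sulfotransferase Sult1e1 read 45.3, 45 and 0.923 against 6.15, 5.58 and 32.8 FPKM. On this gene BDL library 3 lay below every senkyunolide A library. The part of cell division in its other values was not tested. Every result below is therefore given by library, and the main ones also without both libraries. The 2 libraries were chosen because they differed from their groups, and leaving them out lowers the spread. Adjusted p-values without them, and genes said to pass then, describe only the libraries that remain.

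**Figure D2:**
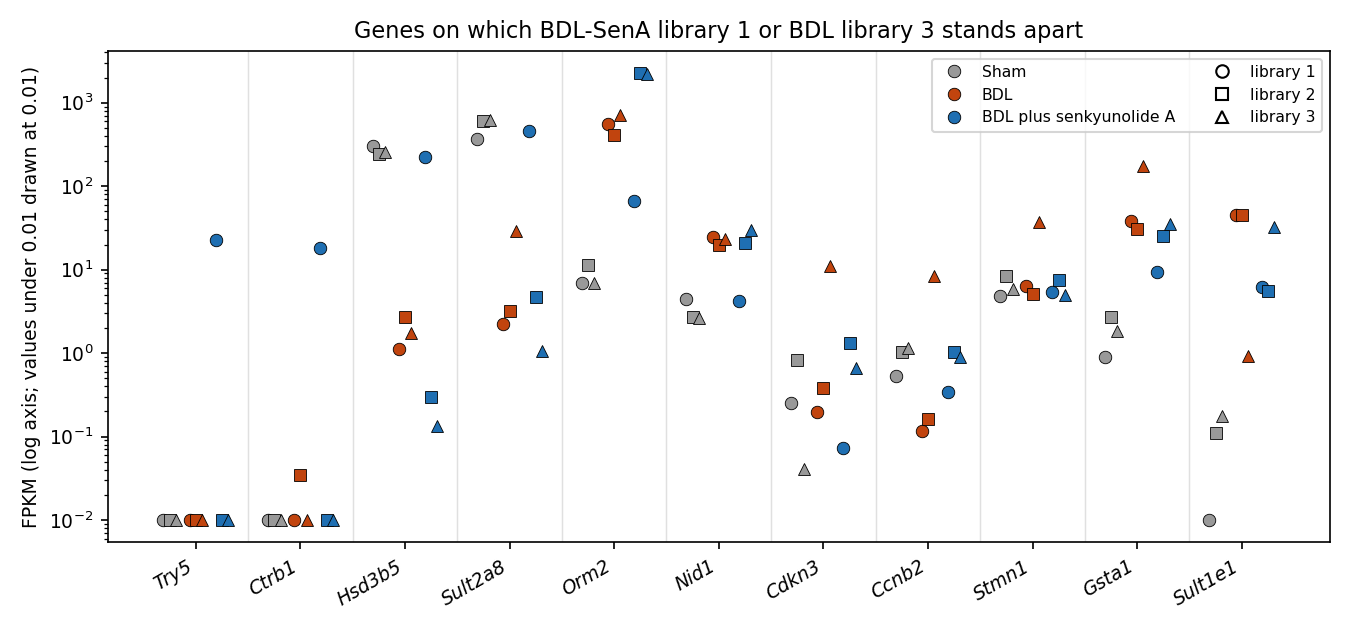
FPKM on a log axis in each of the 9 libraries, with values under 0.01 drawn at 0.01, for genes on which 1 library stands apart. Try5 and Ctrb1 read 22.5 and 18.1 FPKM in BDL plus senkyunolide A library 1, and Cdkn3 reads 11.1 FPKM in BDL library 3.

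Gstm3, a mu-class glutathione transferase that conjugates reactive compounds in the mouse liver, fell with senkyunolide A. It read 761, 1545 and 2153 FPKM in BDL libraries 1, 2 and 3 and 209.7, 148 and 116 FPKM in senkyunolide A libraries 1, 2 and 3. All 3 senkyunolide A libraries lay below all 3 BDL libraries, and all lay above the sham libraries at 41.8, 30.5 and 34.8 FPKM. The mean was 1486 ± 698 FPKM in BDL and 158 ± 47.8 with the compound (SD, n = 3), a 9.42-fold lower mean and a log2 difference of -3.15 ± 0.37 (SE). The gene lies on chromosome 3 (107963696 to 107969174, GRCm38). It was the 1 gene of 10013 called by limma at a Benjamini-Hochberg adjusted p under 0.05 (adjusted p = 0.028), which is 0.00999% of those tested. Without adjustment 1221 genes (12.2%) had a p under 0.05, 325 higher and 896 lower.

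The call depended on which libraries entered, and the size less so. The adjusted p of Gstm3 was 0.461 with the 6 libraries alone, and with 1 of the sham libraries, BDL library 2 or senkyunolide A library 2 or 3 left out it was 0.0764 to 0.215. It was 0.000774 without both libraries that stand apart, with a log2 difference of -3.04, and over 21 alternatives the difference stayed between -3.57 and -2.81. Alternatives that only leave out sham libraries or change the filter, the block or the variance trend cannot move this difference.

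The Gstm3 promoter is shown as the start of the 1 gene called. It is printed 5′ to 3′ on the gene's strand, from 250 bases before to 50 bases after the annotated start in RefSeq on GRCm38.p6 (chr3:107969125-107969424, minus strand).
Gstm3: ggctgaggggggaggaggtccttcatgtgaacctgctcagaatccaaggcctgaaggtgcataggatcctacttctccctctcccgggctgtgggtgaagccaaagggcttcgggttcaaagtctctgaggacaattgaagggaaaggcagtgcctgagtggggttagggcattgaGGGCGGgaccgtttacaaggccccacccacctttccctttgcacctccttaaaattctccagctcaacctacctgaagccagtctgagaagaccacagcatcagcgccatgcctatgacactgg
Capitals mark a GC box (GGGCGG), a motif bound by Sp1 family factors, which starts 74 bases before the gene's start and is found on either strand in 35.7% of 32851 promoters of this length. The letters of the antioxidant response element core (TGACNNNGC), found in 12.4% of these promoters, and of a TATA box (TATAAA), found in 13.6%, are not in this window on either strand.

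The other mu-class transferases ranged from clearly lower to slightly higher. Of 7 tested genes, Gstm3 included, 6 had a negative log2 difference, with a median of -0.78 against -0.12 over all genes. In 3 of them, Gstm3, Gstm1 and Gstm2, all senkyunolide A libraries lay below all BDL libraries. Such a lower pattern without overlap was seen in 14.2% of all tested genes. Gstm1, the most abundant of them, read 3301, 6486 and 5846 against 1775, 755 and 673 FPKM with senkyunolide A, against 1216, 899.8 and 735 FPKM in sham. Its log2 difference was -2.37 ± 0.41 (limma adjusted p = 0.21), and -2.70 without both libraries that stand apart (adjusted p = 0.00191). Gstm2 read 123, 149 and 201 against 76.2, 96.1 and 97.1 FPKM (-0.78 ± 0.24, adjusted p = 0.408). In Gstm4, Gstm5, Gstm6 and Gstm7 the groups overlapped, with log2 differences of -0.88, 0.22, -0.06 and -0.56. The family holds close copies, and how fragments were shared among them is not known, so values of single members are uncertain. The same holds for the Gsta, Cyp2a, Mup, Orm, Saa, Serpina1, Serpina3 and globin genes below.

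Transferases of other classes lay in both directions. Of 14 tested genes 2 lay lower and 2 higher without overlap, against 14.2% lower and 3.18% higher of all genes, and 0 were called by limma (4 at an unadjusted p under 0.05). The alpha-class enzyme Gsta2 read 156, 158 and 236 against 45.8, 76.5 and 115 FPKM with the compound (-1.27 ± 0.35, limma adjusted p = 0.408), and the theta-class enzyme Gstt3 read 26.9, 39.6 and 16.7 against 15.5, 10.1 and 9.05 FPKM (-1.15 ± 0.33). The microsomal transferase Mgst1 lay higher, at 1928, 2080.3 and 3510 against 3746, 4840.2 and 4050.3 FPKM (0.79 ± 0.31). Its 3 senkyunolide A libraries lay within or above the sham range, which was 2907, 4397 and 4142 FPKM.

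NRF2 target genes lay lower with the compound in the larger part of the list. Of 27 tested targets 22 had a negative difference, the median was -0.69, and 11 lay lower and 0 higher without overlap. Over all genes 38.1% had a positive difference, the median was -0.12, and 14.2% lay lower and 3.18% higher without overlap. None of the targets was called by limma, while 14 had an unadjusted p under 0.05, all of them lower, against 896 lower of 10013 genes. Gpx2, a glutathione peroxidase of epithelia, read 9.68, 8.12 and 11.5 against 2.26, 3.35 and 4.35 FPKM with senkyunolide A (-1.33 ± 0.22, limma adjusted p = 0.161). In sham it was listed at 0, 0 and 0.0343 FPKM. The carbonyl reductase Cbr1, which reduces quinones and other carbonyls, read 113, 144 and 100.4 against 61.4, 44.5 and 41.9 FPKM (-1.26 ± 0.23, adjusted p = 0.243), the sham libraries being at 44.1, 42.4 and 38.2 FPKM. Epoxide hydrolase 1 (Ephx1) read 453, 454 and 387 against 237, 198 and 215 FPKM (-0.99 ± 0.21, adjusted p = 0.408), so that the senkyunolide A libraries lay below sham too, at 292, 266 and 256 FPKM. The same order without overlap was seen in the sulfiredoxin Srxn1 (33.7, 33.4 and 80.6 against 13, 24.2 and 20.3 FPKM), the basolateral export pump Abcc3 (128, 116 and 82.4 against 48.4, 47.2 and 49.97 FPKM) and the quinone reductase Nqo1 (26.3, 23.4 and 18.6 against 4.42, 11.8 and 17.6 FPKM). It was also seen in the thioredoxin reductase Txnrd1, the second carbonyl reductase Cbr3 and the pump Abcc4.

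Other NRF2 targets overlapped between the groups. These included both subunits of glutamate-cysteine ligase, the rate-limiting enzyme of glutathione synthesis, with log2 differences of -0.33 ± 0.48 for Gclc and -0.23 ± 0.21 for Gclm. Haem oxygenase 1 (Hmox1) read 25.6, 55 and 76.4 against 18.6, 118 and 100.5 FPKM with the compound, where libraries 2 and 3 of the senkyunolide A group lay above and library 1 below the BDL group. Peroxiredoxin 1 (Prdx1) read 723, 756 and 1374 against 938, 1571 and 1664 FPKM. With both libraries that stand apart left out 7 targets passed as lower and 3 as higher, against 5.58% and 8.08% of all genes. The median was then -0.58.

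**Figure D3:**
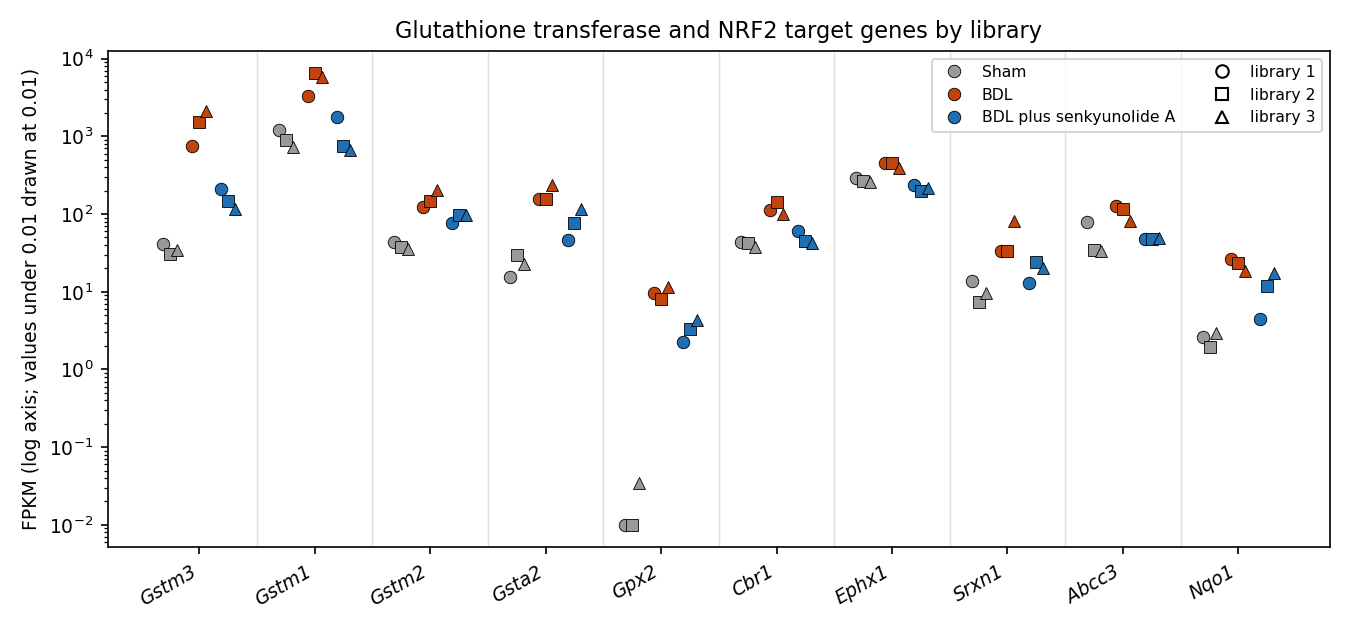
FPKM on a log axis in each of the 9 libraries for 10 glutathione transferase and NRF2 target genes, with values under 0.01 drawn at 0.01; colours give the group and symbols the library number. The 10 genes shown are among those in which the 3 BDL plus senkyunolide A libraries lie below the 3 BDL libraries. Other members of these lists, not shown, overlap between the groups or lie higher. Gstm3 reads 116 to 209.7 against 761 to 2153 FPKM.

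Beyond Gstm3 and Gstm1, most of the largest lower values without overlap were in drug, sugar, sterol and lipid enzymes. Cyp2a5, a cytochrome P450 that oxidizes coumarin and nicotine, read 1024, 916 and 262 against 173, 100.4 and 64.6 FPKM with senkyunolide A (-2.58 ± 0.52, limma adjusted p = 0.408). The sham libraries read 100.1, 47.5 and 67.7 FPKM. BDL library 3 was the lowest of the BDL group, and without both libraries that stand apart the difference was -3.57 (adjusted p = 0.000389). Its near-identical neighbour Cyp2a4 read 4.71, 3.82 and 0.769 against 0.285, 0.141 and 0.699 FPKM (-1.43 ± 0.48), where BDL library 3 and senkyunolide A library 3 differed by less than 0.1 FPKM. Trehalase (Treh), which splits the sugar trehalose, read 7.36, 9.85 and 2.63 against 0.714, 1.66 and 1.97 FPKM (-1.53 ± 0.36). The carbonyl reductase Cbr3 read 2.03, 4.26 and 17.4 against 0.837, 1.48 and 1.79 FPKM (-1.51 ± 0.50). BDL library 3 was the highest there, and the difference was -0.60 without both libraries. The small proline-rich protein Sprr1a, a protein of stressed epithelia, read 11.3, 25.4 and 16.9 against 2.02, 10.1 and 7.94 FPKM (-1.43 ± 0.43). The hydrolase Abhd2 read 22.2, 24.1 and 25.9 against 4.56, 12.5 and 10.9 FPKM (-1.38 ± 0.36). For Sprr1a and Abhd2 library 1 was the lowest of the senkyunolide A group. Apart from Gstm3, the adjusted p of the 12 genes largest in this direction was 0.161 to 0.408.

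Cholesterol synthesis enzymes lay lower as well. Of 24 tested genes 18 had a negative difference, with a median of -0.54, and 10 lay lower and 1 higher without overlap, against a median of -0.12 and 14.2% lower and 3.18% higher over all genes. The count called by limma was 0, and 9 had an unadjusted p under 0.05, all lower, against 896 lower of 10013 genes. Mevalonate diphosphate decarboxylase (Mvd) read 32, 48.3 and 22.2 against 16.7, 11.7 and 9.98 FPKM (-1.31 ± 0.46). The last-step reductase Dhcr7 read 36.1, 47.8 and 38.1 against 25, 22.2 and 14.2 FPKM (-0.98 ± 0.32). Srebf2, the transcription factor of the pathway, lay in the same order without overlap, at 18, 26.9 and 12.2 against 10.9, 8.68 and 8.68 FPKM. Emopamil-binding protein (Ebp), a sterol isomerase, was the 1 member higher without overlap (0.37), and Cyp51 and Msmo1 overlapped (0.16 and 0.15). In the 4 libraries left without those that stand apart 4 of the 24 passed, all lower. Over all genes 5.58% passed as lower and 8.08% as higher there.

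In fatty acid synthesis 12 of 15 tested genes had a negative difference (median -0.43) and 2 lay lower without overlap, a share near the 14.2% of all genes. Fatty acid synthase (Fasn) read 39.1, 67.7 and 60.2 against 33.9, 21.2 and 14 FPKM (-1.29 ± 0.48). Acetyl-CoA carboxylase (Acaca), which makes its substrate, read 13.9, 11.3 and 10.7 against 6.34, 5.91 and 3.8 FPKM (-1.05 ± 0.29). In both genes senkyunolide A library 3 was the lowest of the 6 libraries. Fatty acid oxidation genes had a median of 0.05, with 3 lower and 2 higher of 24 without overlap, the lower share also being near that of all genes. Cpt1a, the entry gate of mitochondria, was lower at 76.4, 71.1 and 40.6 against 47, 27.3 and 28.7 FPKM. The trifunctional protein subunit Hadhb was higher at 24.3, 16.5 and 30.9 against 32.1, 36.5 and 35.5 FPKM.

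Higher values without overlap were fewer under the deposited scaling, at 318 genes (3.18%) against 1425 lower (14.2%). Under median-ratio scaling the same count was 766 higher and 721 lower, so the excess of lower genes depends on the scaling. The largest of them were in Dio1 and G6pc, both liver metabolic genes. The deiodinase Dio1, which activates thyroid hormone, read 1.81, 2.19 and 8.02 against 51.5, 13.6 and 15.2 FPKM with senkyunolide A, against 70.3, 133 and 135 FPKM in sham (2.42 ± 0.54, limma adjusted p = 0.408). Glucose-6-phosphatase (G6pc), which releases glucose from the liver, read 14.7, 11.8 and 47.6 against 122, 80.8 and 60.3 FPKM (1.99 ± 0.45, adjusted p = 0.408), with sham at 278, 215 and 297 FPKM. In both genes library 1 was the highest of the senkyunolide A group and BDL library 3 the highest of the BDL group. Without these 2 libraries both passed, at 2.36 and 2.32 (adjusted p = 0.00192 and 0.000807). The steroid dehydrogenase Hsd17b6 read 20.4, 13.9 and 53 against 80.5, 100.2 and 54.3 FPKM (1.58 ± 0.42). Small heterodimer partner (Nr0b2), the bile acid-induced repressor of bile acid synthesis, read 7.57, 10.9 and 19.2 against 28.6, 39.5 and 32.2 FPKM (1.43 ± 0.38, adjusted p = 0.408) and 55.2, 28 and 19.4 FPKM in sham.

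Most of the other genes largest in the higher direction are known from blood or stroma or are protease inhibitors. Decorin (Dcn), a collagen-binding proteoglycan, read 12.5, 16.7 and 59.5 against 72.1, 127 and 61.1 FPKM (1.78 ± 0.49), where BDL library 3 lay within 2 FPKM of senkyunolide A library 3. The vessel and stellate cell protein Igfbp7 read 20.4, 34.1 and 56.9 against 70.6, 122 and 105 FPKM (1.47 ± 0.34). Adult beta-globin (Hbb-bs) read 66.8, 92.1 and 237 against 312, 528 and 321 FPKM (1.72 ± 0.41). Its near-identical copy Hbb-bt read 8.13, 14.3 and 37.9 against 47.6, 78.4 and 40.5 FPKM (1.63 ± 0.45). The platelet chemokine Pf4 read 1.31, 3.7 and 1.92 against 5.04, 11.3 and 8.89 FPKM (1.51 ± 0.35). These globin and platelet genes were highest in senkyunolide A library 2. The interferon-induced membrane protein Ifitm1 read 2.26, 3.16 and 9.24 against 13.3, 23.3 and 10.00 FPKM (1.59 ± 0.42). The protease inhibitor Serpina3g read 2.17, 2.74 and 6.55 against 7.54, 20.6 and 16.8 FPKM (1.73 ± 0.38). Its relative Serpina3f read 0.827, 0.339 and 1.26 against 1.96, 4.39 and 5.05 FPKM (1.38 ± 0.29). All 12 genes largest in this direction had a limma adjusted p of 0.408. All 12 kept their sign in every alternative that tested them (20 for Serpina3f, 21 for the others). They were selected for groups without overlap, where leaving out libraries or changing the pseudocount cannot reverse the sign. The constant sign is therefore no separate support.

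**Figure D4:**
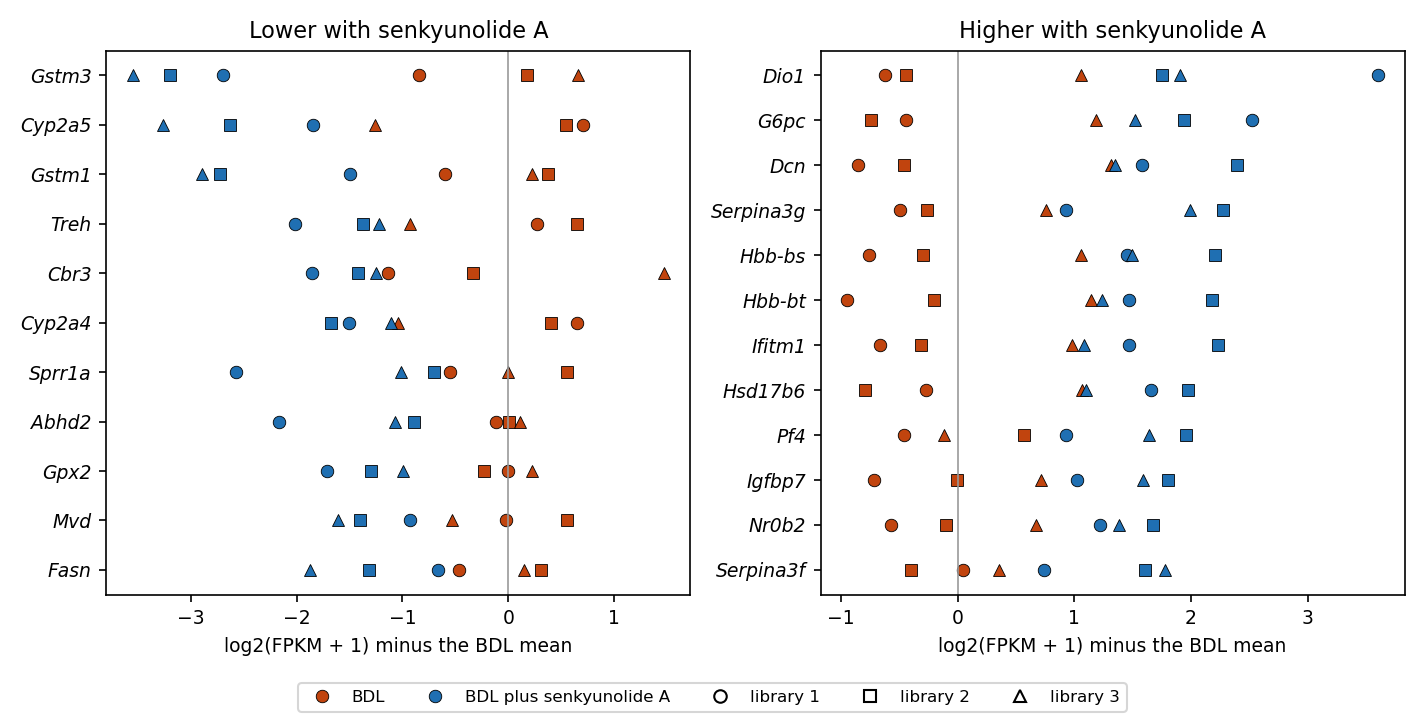
Each point is 1 library, as log2(FPKM + 1) minus the mean of the 3 BDL libraries, for 11 of the 12 genes with the largest lower difference (left) and the 12 with the largest higher difference (right) among those whose groups did not overlap. BDL library 3 lies nearest to the senkyunolide A libraries in all 12 genes on the right except Pf4, and Gstm3 is the 1 gene called.

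Among cell type markers the erythroid list lay higher in summed FPKM with senkyunolide A. The stromal and endothelial lists lay higher than in BDL libraries 1 and 2, while BDL library 3 lay within the senkyunolide A range. In bulk libraries fewer cells of a type and less RNA per cell cannot be told apart. The 9 erythroid genes took 0.027% to 0.0898% of the summed FPKM in BDL and 0.0947% to 0.163% with the compound, and 3 of 5 tested were higher without overlap, against 3.18% of all genes. Alas2, the haem synthesis enzyme of red cells, read 4.27, 6.45 and 25.9 against 68.6, 26.7 and 11.2 FPKM, with BDL library 3 inside the range of the senkyunolide A group. The 29 stellate, fibroblast and matrix genes in the table took 0.0177% to 0.0636% and 0.0505% to 0.0891%, with a median log2 difference of 0.58 over 24 tested. Decorin and the matrix protease Mmp2 were the 2 higher without overlap, and 10 had an unadjusted p under 0.05. Lumican (Lum), a proteoglycan of collagen fibrils, read 2.58, 2.6 and 11.1 against 7.62, 43.1 and 22.1 FPKM. Collagen III (Col3a1) read 4.1, 5.69 and 26 against 11.8, 51.6 and 43.9 FPKM. In both, BDL library 3 lay above senkyunolide A library 1. The 20 endothelial genes took 0.0196% to 0.058% in BDL and 0.0445% to 0.0655% with the compound. Of 19 tested endothelial genes 18 had a positive difference (median 0.46) and 0 were without overlap. The sinusoidal lectin Clec4g read 22.6, 25.8 and 70.6 against 63.4, 113 and 87.2 FPKM, with BDL library 3 above senkyunolide A library 1. The Fc receptor Fcgr2b read 14.2, 13.1 and 47.9 against 33.9, 77.8 and 56.5 FPKM. Once both libraries that stand apart were left out, 13 of 21 stromal, 7 of 19 endothelial and 4 of 5 erythroid genes passed, all higher, against 8.08% of all genes in that direction. The part of these cell types in the other results was not tested.

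Macrophage, neutrophil and biliary lists turned on the libraries that stand apart. Of 25 macrophage and Kupffer cell genes 0 were called by limma, 0 had an unadjusted p under 0.05 and 0 were without overlap (median 0.28). Their summed FPKM was 1067, 1671 and 1343 in BDL and 689, 2355 and 2912 with senkyunolide A, so that library 1 lay below and libraries 2 and 3 above every BDL library. With these 2 libraries left out 13 passed as higher and 1 as lower, against 8.08% and 5.58% of all genes, among the higher the Kupffer cell lectin Clec4f (1.36, limma adjusted p = 0.00705). The calprotectin subunit S100a9 of neutrophils read 16.5, 17.7 and 34 against 8.32, 48.5 and 38.6 FPKM. The neutrophil granule protein Ngp read 3.06, 2.35 and 0.271 against 0.561, 0.418 and 0.503 FPKM, where BDL library 3 was the lowest of all 6. Of 5 tested neutrophil genes 0 were without overlap. Of 16 tested biliary genes 3 lay lower without overlap, near the 14.2% of all genes, among them the tight junction claudin Cldn3 at 66.9, 129 and 61.9 against 58.1, 26.6 and 31.8 FPKM (-1.12 ± 0.39). Another was the anion exchanger Slc4a2, at 5.89, 7.89 and 6.38 against 5.52, 3.38 and 3.5 FPKM. The list median was -0.22 with and 0.16 without these 2 libraries. Of 6 tested lymphocyte and plasma cell genes 1 lay lower without overlap, the immunoglobulin joining chain Jchain at 14.1, 8.47 and 9.55 against 5.43, 2.08 and 5.05 FPKM (-1.22 ± 0.40).

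Hepatocyte markers had a median of 0.16 over 35 tested, with 7 higher and 2 lower without overlap, against 3.18% and 14.2% of all genes. Serpina1c, an antitrypsin copy that inhibits plasma proteases, read 785, 932 and 1479 against 2837, 2436 and 2211 FPKM (1.27 ± 0.30), and 2143, 2979 and 2865 FPKM in sham. Its copy Serpina1d read 1159, 800.4 and 1064 against 2681, 1885 and 2247 FPKM (1.17 ± 0.27), and 2019.8, 2699 and 2539 FPKM in sham. In both copies all BDL libraries lay below all sham and all senkyunolide A libraries. Transferrin (Trf), the iron carrier of plasma, lay lower, at 15325, 15812 and 9477 against 6762, 8173 and 8238 FPKM (-0.78 ± 0.30). The 2 mesothelial genes tested, Msln and Upk3b, overlapped (0.79 ± 0.49 and 0.65 ± 0.42).

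The genes named in the series title were not called. The proto-oncogene Myc read 8.91, 11.8 and 5.8 FPKM in BDL libraries 1, 2 and 3, 6.59, 3.99 and 4.25 FPKM with senkyunolide A and 1.39, 5.28 and 9.26 FPKM in sham. BDL library 3 lay below senkyunolide A library 1, so the groups overlapped. Its difference on the log2 scale was -0.70, with a 95% interval that ran from -1.69 to 0.28 (limma adjusted p = 0.484), and -1.13 without both libraries that stand apart (adjusted p = 0.145). Its sign was the same in all 21 alternatives. Those that only leave out sham libraries or change the filter, the block or the variance trend cannot alter the difference. Traf6, whose protein attaches ubiquitin chains downstream of Toll-like receptors, read 3.69, 2.6 and 3.35 against 3.08, 3.15 and 3.41 FPKM, with a difference of 0.01 and an interval from -0.43 to 0.45 (adjusted p = 0.987). The histone deacetylase gene Hdac3 read 20.6, 20.6 and 21.7 against 18.6, 21.2 and 18.7 FPKM, with a difference of -0.10 and an interval from -0.52 to 0.32 (adjusted p = 0.801). The intervals of Traf6 and Hdac3 leave out a log2 change of 1 in either direction, whereas that of Myc does not leave out a fall of that size.

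MYC-driven nucleolar and metabolic genes lay lower in part. Of 31 tested 23 had a negative difference (median -0.29) and 9 lay lower without overlap, against -0.12 and 14.2% over all genes, but 0 were called by limma. Over all genes 38.1% had a positive difference. At an unadjusted p under 0.05 there were 7 lower and 1 higher. Without both libraries that stand apart the median was -0.20. Of 30 tested then 2 passed as lower and 1 as higher, against 5.58% and 8.08% of all genes. Nucleolin (Ncl), which acts in ribosome assembly, read 26.8, 23.7 and 25.8 against 17.9, 12.9 and 11.4 FPKM (-0.83 ± 0.22). The nucleolar RNA helicase Ddx21 read 10.5, 9.36 and 10.4 against 6.02, 6.23 and 5.5 FPKM (-0.68 ± 0.22). Lactate dehydrogenase A (Ldha) overlapped with higher values, at 90.2, 82.5 and 155 against 148, 221 and 181 FPKM. Of 11 tested genes of the MYC dimerization network 1 lay lower without overlap, below the share of all genes. This was the MAX partner Mnt at 2.11, 3.31 and 1.73 against 1.21, 1.11 and 1.38 FPKM (-0.57 ± 0.23). The 13 tested genes of the HDAC3 complex and the deacetylase family had a median of -0.34, with 2 lower without overlap, a share near the 14.2% of all genes. Among these was the corepressor subunit Gps2, at 15.2, 29.9 and 15.2 against 13.5, 5.93 and 10.6 FPKM (-0.93 ± 0.33). The 28 tested TRAF6 and Toll-like receptor pathway genes had a median of -0.07, which turned positive under median-ratio scaling, and 3 lay lower without overlap, below the 14.2% of all genes. Among these the kinase Ikbkb, which activates NF-kappaB, read 11.5, 9.65 and 10.8 against 7.67, 7.24 and 7.32 FPKM (-0.47 ± 0.23). The ubiquitin-binding adaptor Sqstm1 read 113, 133 and 157 against 99, 87.6 and 75.3 FPKM (-0.61 ± 0.23). Sqstm1 is also a known NRF2 target.

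Acute phase genes split the senkyunolide A group. The serum amyloid gene Saa1 read 165, 216 and 1755 against 76.6, 6386 and 3444 FPKM with the compound. Its near-identical copy Saa2 read 135, 156 and 1109 against 55.3, 6844 and 3765 FPKM. Library 1 lay below all BDL libraries and libraries 2 and 3 above all of them. Lipocalin 2 (Lcn2), which binds bacterial siderophores, had the same order, at 1583, 1411 and 554 against 169, 5902 and 8086 FPKM. Summed over 26 genes, the FPKM were 35009.7, 27902 and 25069 in BDL and 16289, 63727 and 60598 with senkyunolide A. Of the 26, 1 was higher and 1 lower without overlap, against 3.18% and 14.2% of all genes. Saa4 was the higher one, at 59.1, 49.7 and 84.9 against 98.4, 185 and 100.2 FPKM (0.95 ± 0.30). Stat3, the transcription factor of this response, was the lower one, at 42.3, 53.5 and 32.4 against 26.3, 30.8 and 31.1 FPKM. None of the 26 was called by limma (4 at an unadjusted p under 0.05). After leaving out both libraries that stand apart 12 passed as higher and 2 as lower, against 8.08% and 5.58% of all genes, with Saa2 at 5.12 (adjusted p = 6.58e-05) and the serum glycoprotein gene Lrg1 at -1.12 (adjusted p = 0.0389).

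In the chemokine list some genes were high in senkyunolide A libraries 2 and 3 alone. Of 14 tested chemokines and duct-secreted factors 0 were without overlap and 0 had an unadjusted p under 0.05. The neutrophil chemokine Cxcl2 read 0.492, 0.688 and 0.638 against 0, 5.01 and 5.65 FPKM. Its relative Cxcl5 read 0.733, 0.281 and 2.16 against 0.295, 4.58 and 6.26 FPKM. In 24 tested NF-kappaB targets the median was 0.17, with 1 lower and 1 higher without overlap, near or below the shares of all genes. The lower one was the NF-kappaB inhibitor Tnip1, at 5.05, 6.48 and 6.67 against 2.92, 4.45 and 3.77 FPKM. The higher one was the mitochondrial superoxide dismutase Sod2, at 36, 36.8 and 39.2 against 48.5, 49.6 and 50.2 FPKM. In the 4 libraries that remain without those standing apart 8 chemokine and 7 NF-kappaB genes passed, all higher, against 8.08% of all genes in that direction. Interferon-stimulated genes had 22 of 26 positive differences (median 0.27) but 1 lower and 0 higher without overlap, and the ubiquitin-like protein Isg15 read 2.7, 3.33 and 11.3 against 10.9, 11.9 and 14 FPKM.

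Bile acid genes lay in both directions, and over all genes 14.2% lay lower and 3.18% higher without overlap. Of 15 tested synthesis and conjugation genes 1 lay lower and 1 higher without overlap, the lower being the oxysterol hydroxylase Cyp39a1 at 9.8, 6.46 and 7.94 against 4.4, 3.55 and 5.58 FPKM (-0.72 ± 0.22). Of 21 tested transporters and sensors 4 lay lower and 1, Nr0b2, higher, the lower share being near the 14.2% of all genes. Most members overlapped between the groups, and the export pumps Abcb1a and Abcc4 were among the lower ones. Abcb1a, which exports drugs and steroids, read 5.4, 3.28 and 2.4 against 0.371, 1.57 and 1.38 FPKM (-1.16 ± 0.28, limma adjusted p = 0.408). Abcc4, a basolateral pump of bile acids, read 2.24, 2.25 and 0.881 against 0.365, 0.56 and 0.727 FPKM (-0.81 ± 0.23). With Abcc3, given above, 3 efflux pumps lay lower in all 3 senkyunolide A libraries than in any BDL library. These 3 were named for a small p or after their values were seen, so they do not describe efflux pumps as a group.

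Male-biased growth hormone targets had a median of 0.60 over 23 tested with 0 without overlap. Summed FPKM were 3555, 2782 and 12423 in BDL and 32917, 11167 and 6973 with senkyunolide A, against 36312, 50599 and 55701 in sham, so library 1 alone of the 6 came near the sham level. The major urinary protein gene Mup20 had another order, at 112, 166 and 4579 against 3666, 5740.2 and 2999 FPKM, with BDL library 3 inside the range of the senkyunolide A group. Circadian genes set the same BDL library apart. The clock output factor Dbp read 29.97, 48.6 and 3.53 against 9.82, 3.31 and 3.17 FPKM with the compound. The clock repressor Ciart read 4.74, 5.34 and 0.384 against 0.412, 0.141 and 0.894 FPKM. BDL libraries 1 and 2 were high on both and BDL library 3 lay within the range of the senkyunolide A group. Of 16 tested clock genes 14 had a negative difference (median -0.51) and 1 was lower without overlap, below the 14.2% of all genes. Leaving out both libraries, 7 passed as lower, against 5.58% of all genes. The labels do not state the time of day of collection, and its part in these values was not tested.

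The stress and structural lists are read against the 14.2% of all genes that lay lower and the 3.18% that lay higher without overlap. The ATF4 and keratin and junction lists were above the former share, and the others here were near or below it. Of 16 tested ATF4 targets 6 lay lower without overlap, among them the serine synthesis enzyme Psat1 at 2.1, 1.83 and 1.61 against 0.457, 1.11 and 0.926 FPKM (-0.65 ± 0.19). The stress sensor Sesn2 was another, at 2.77, 5.38 and 3.72 against 1.55, 1.85 and 2.21 FPKM (-0.76 ± 0.22). In 21 tested keratins and junction genes 17 had a negative difference (median -0.54) and 5 lay lower without overlap, with the tight junction scaffold Tjp1 at 8.84, 7.61 and 7.96 against 3.85, 5.91 and 5.58 FPKM. Without both libraries that stand apart the median of this list was -0.14. Then 3 of its genes passed as higher and 2 as lower, against 8.08% and 5.58% of all genes. Of 17 tested heat shock chaperones 3 lay lower, led by Hsp90ab1 at 334, 439.7 and 382 against 306, 151 and 124 FPKM (-1.09 ± 0.33). Of 18 tested immediate early genes 3 lay lower, among them the stress factor Atf3 at 4.18, 5.45 and 7.31 against 0.922, 4.16 and 4.17 FPKM. Endoplasmic reticulum chaperones had 3 lower and 1 higher of 21. Manf, a secreted stress protein among them, read 66.3, 68 and 234 against 110, 328 and 270.5 FPKM. Drug-metabolizing P450 genes had 2 lower (Cyp2a4 and Cyp2a5) and 2 higher of 20, one of the higher being Cyp2c54 at 85.2, 60.1 and 49 against 165, 144 and 105 FPKM (1.09 ± 0.26). Of 19 tested p53 and senescence genes 2 lay lower and 1 higher, the latter the growth factor binding protein Igfbp3 at 0.419, 0.78 and 0.906 against 5.15, 1.54 and 1.38 FPKM (0.98 ± 0.32). Of 11 tubulin genes 1 lay lower, Tubb5 at 42.5, 59.1 and 56.4 against 39.9, 28.9 and 27 FPKM. Of 6 metallothionein and zinc transporter genes 1 lay lower, and the metallothionein Mt2 overlapped widely, at 1166, 1406 and 128 against 181, 972 and 2229.9 FPKM. Of 16 tested iron handling genes 1 lay lower, and of 21 tested cell cycle genes 0 were without overlap. In none of these lists was a gene called by limma with all 6 libraries.

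**Figure D5:**
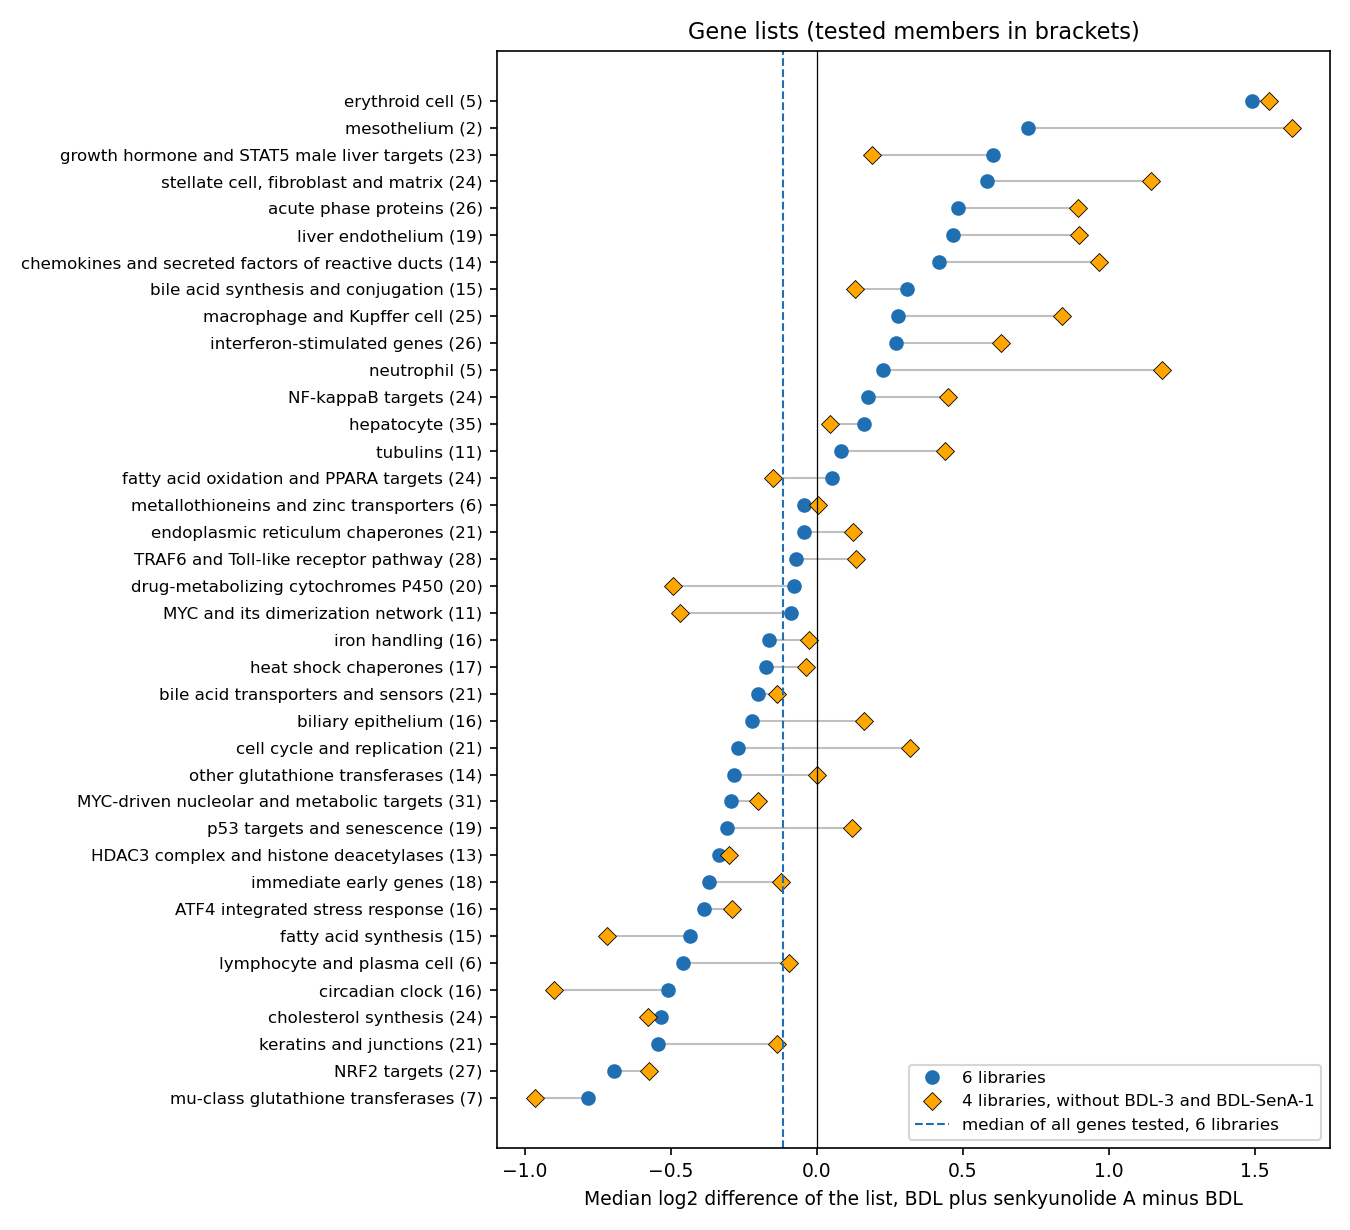
Median log2 difference (BDL plus senkyunolide A minus BDL) of 38 gene lists, with all 6 libraries (circles) and without BDL library 3 and BDL plus senkyunolide A library 1 (diamonds); the dashed line is the median of all genes with 6 libraries. The mu-class transferases and NRF2 targets have the lowest medians with 6 libraries, at -0.78 and -0.69.

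Leaving out both libraries that stand apart changed the extent of the comparison. With BDL libraries 1 and 2 against senkyunolide A libraries 2 and 3, and the 3 sham libraries in the estimate of spread, 1363 of 9975 genes passed in limma (13.7%), 806 higher and 557 lower. The libraries left out were chosen because they differed from their groups, which lowers the spread, so this count describes those 4 libraries. Of the 1363 genes 242 were without overlap in the same direction when all 6 libraries were kept. That share is near the 17.4% of all 10013 genes that were without overlap in either direction. Leaving out BDL library 3 alone gave 65 genes, and leaving out senkyunolide A library 1 alone gave 65, of which 5 were shared.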

How the data were processed

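PolyA RNA was sequenced from 9 mouse libraries, 3 per group, with groups taken from the sample titles. Per the submitters' processing notes, DESeq2 1.20.0, featureCounts 1.5.0-p3, HISAT2 2.0.5, fastp and CASAVA 1.8 were used, with the build GRCm38 (mm10); settings, annotation and strandedness were not given in the sources used here. The authors deposited FPKM per gene, which divide fragments by transcript length and library total, so very abundant genes lower the others. No 2 libraries shared an identical non-zero value of a gene. Nothing in the labels ties each library to an animal of its own, so the p-values rest on a spread between libraries that may be technical.

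Values were analysed as log2(FPKM + 1), which understates changes of low genes, with limma 3.58.1 in R 4.3.3: 1 model held the 3 groups, the variances were moderated with a trend on mean level, tests were two-sided, and a gene was called where its p, adjusted by Benjamini-Hochberg over 10013 genes, was under 0.05. "Without overlap" means that all 3 libraries of one group lay beyond all 3 of the other. Median-ratio and quantile scaling, other pseudocounts and filters, library weights, a replicate block and left-out libraries were alternatives, and the procedure was tested on simulated data. Depth was estimated from the step sizes of low FPKM values (under 0.3) of genes with a single transcript in GENCODE M21, so no counting interval is given. The comparison, 38 gene lists and tests were chosen with earlier results of these data known. Named genes were those called, the 12 largest differences in each direction among protein-coding genes without overlap and with an unadjusted p under 0.05, the title genes, up to 3 genes of smallest p per list, and the 6 genes furthest above or below all others in each library that stands apart; other list members, and the pancreatic list, were named after their values were seen. Not all genes given by the rule are printed.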

Additional observations from a re-analysis of the deposited data

How the results depend on the processing

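The count of called genes was 1 with all libraries, 0 with the 6 libraries without sham, 1363 with BDL plus senkyunolide A library 1 and BDL library 3 both left out, and 3331 with library weights. The weights ran from 0.2 (senkyunolide A library 1) to 7.48 (senkyunolide A library 2), and the routine stopped before it converged. With 1 library left out the count was 0 to 65; it was 65 without BDL library 3 or senkyunolide A library 1. In the other scaling, filter, pseudocount and trend settings it was 1 each, which was Gstm3 except without a filter, where it was the low gene Bex2 (adjusted p = 0.00152; adjusted p = 0.129 for Gstm3). Gstm3 passed in 12 of 21 alternatives. Same-numbered libraries of the 2 groups did not deviate together (r = -0.174, -0.383 and -0.139). Deviations from means of 3 libraries cannot exclude a pairing by number, and the labels do not state one. With the replicate block the count was 0. Of 147 genes given by the naming rule 20 and of 39 lists 20 changed the sign of their difference in some alternative. Hsd3b5, not called with all libraries and higher then by 1.32, passed as lower with both libraries left out (-1.20, adjusted p = 0.0201). At an unadjusted p under 0.05 the count was 529 (without senkyunolide A library 2) to 2472 (without senkyunolide A library 1) with 1 library left out. Genes near 1 FPKM are limited by depth and by the pseudocount.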

Other observations

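Several genes outside the naming rule, chosen after their values were seen, differed between the groups with little spread. The nuclear pore protein gene Tpr read 14.8, 11.5 and 15.6 FPKM in BDL libraries 1, 2 and 3 and 5.75, 4.86 and 5.35 FPKM with senkyunolide A, against 6.63, 6.81 and 7.9 FPKM in sham (log2 difference -1.24 ± 0.19, limma adjusted p = 0.161). Glycogen branching enzyme (Gbe1) read 77.8, 75 and 85.6 against 40.1, 37.9 and 31.5 FPKM (-1.11 ± 0.19, adjusted p = 0.212). The elongation factor gene Ell3 read 2.23, 1.43 and 1.69 against 0.253, 0.145 and 0.349 FPKM (-1.15 ± 0.19, adjusted p = 0.161). The cytochrome P450 gene Cyp4b1 lay higher, at 3.01, 3.6 and 5.47 against 12.1, 10.2 and 9.04 FPKM (1.21 ± 0.23, adjusted p = 0.287), close to sham at 14.4, 12.1 and 10.7 FPKM. In these 4 genes the groups did not overlap. Bex2, which fell below the filter, read 0.755, 0.723 and 0.627 against 0.0361, 0 and 0.0341 FPKM with the compound.

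A second set marked BDL libraries 1 and 2 against all others. Cux2, a transcription factor of the female mouse liver, read 6.76, 6.03 and 0.102 FPKM in BDL, 0.263, 0.017 and 0.654 FPKM with senkyunolide A and 0.0363, 0.00392 and 0.0082 FPKM in sham. The G protein regulator Rgs16 read 18.5, 21.6 and 0.256 against 1.78, 0.48 and 0.54 FPKM. The leucine-rich repeat protein gene Lrtm2 read 8.9, 8.64 and 0.152 against 0.459, 0.262 and 1.12 FPKM. On Cux2, Rgs16 and Lrtm2 BDL library 3 lay within or below the range of the senkyunolide A libraries. These genes were chosen for this order of libraries, so no test is given.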
